A study of Saccharomyces cerevisiae with 20 samples.

Results

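Gene expression in yeast lacking Sds3 (Δsds3) was compared between stationary phase (SP) and diauxic shift (DS). The libraries were chosen by their labels alone, 2 of Δsds3 at SP and 2 of Δsds3 at DS, which makes 4 of the 20 libraries of the series. The matching wild type (WT) libraries, 2 at SP and 2 at DS, were used to ask where the phase change of the deletion strain differed from that of WT. All strains were of the W303 laboratory background, grown in 25 mL of YPD, a rich medium with glucose, at 30 °C, and in Δsds3 the gene had been replaced by an antibiotic resistance marker. DS cells were collected shortly after glucose could no longer be detected, and SP cells after 3 days of growth. Each null mutant is a model of constant loss of Sds3, since the deletion was present throughout growth and in both phases.

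Sds3 is a subunit of Rpd3L, the large form of the Rpd3 histone deacetylase complex, and the complex needs it for its deacetylase activity. Rpd3L is brought to promoters by DNA-binding repressors such as Ume6, which holds early meiotic genes off in growing cells, and Xbp1, which acts as cells stop dividing. At the diauxic shift yeast has used up its glucose and turns to the ethanol it has made, and genes of respiration, gluconeogenesis and stress resistance come on. In stationary phase cells stop dividing and live on stored carbohydrate and lipid.

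The libraries differed in depth and in how well they repeated each other. Reads on genes numbered 18530338 and 2633585 in the Δsds3 SP libraries A and B, and 25628224 and 25659088 in the Δsds3 DS libraries A and B. SDS3 itself (YIL084C) had 1 read and 0 reads at SP and 0 reads in both DS libraries of Δsds3, where a count of 0 allows up to 3 reads, against 699 and 144 reads in WT at SP and 877 and 614 in WT at DS. The column of SP library B carries another strain number than the other 3 Δsds3 columns. The labels give no mating type. The 7 a-specific genes summed to between 9162 and 9813 rescaled counts in Δsds3 at SP and between 11298 and 16171 at DS, the 4 alpha-specific genes to between 2241 and 2372 at SP and between 3282 and 4626 at DS, and no gene of either list was at 0. A rescaled count is the read count divided by a factor for the depth of its library, the median of ratios over genes, taken over all 8 libraries for these sums and over the 4 Δsds3 libraries for the values of single genes that follow.

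The Δsds3 DS libraries stood far apart. Among 5469 genes with at least 20 reads in each of the 8 libraries, 0.658% differed at least 2-fold between the SP libraries of Δsds3 and 35.4% between the DS libraries of Δsds3. In WT the share was 0.402% between the SP libraries and 4.22% between the DS libraries. DS library A resembled the SP libraries, with 4.94% and 5.10% of genes at least 2-fold apart from SP libraries A and B. DS library B was as far from SP as from its own replicate, with 36.5% and 40.9%. In WT, the 4 pairs of an SP and a DS library differed at 15.7% to 22% of genes. Over the tested genes of Δsds3, DS library A lay between the mean of the SP libraries and DS library B at 3002 of 6370, the SP mean lay between the DS libraries at 2488, and DS library B lay between the SP mean and DS library A at 880. The 100 genes with the most reads took 21.7% and 19.0% of reads in SP libraries A and B, against 22.7% in DS library A and 34.3% in DS library B. The WT libraries took 34.4% and 33.3% at SP and 32.7% and 37.5% at DS, so on this measure DS library B was the nearest to WT. Protein-coding genes were also sorted by their mean level over the 4 Δsds3 libraries. The median log2 difference of DS library B minus DS library A was 0.62 over the 1448 highest genes. Over the 1448 lowest it was -0.39. DS library B entered the mean level, so the sorting itself favours such a difference. What set the DS libraries apart was not tested. Whether each was taken at the stage its label gives was not tested either, so every value of SP against DS below rests on the labels, and the values of both DS libraries are given for each gene.

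**Figure D1:**
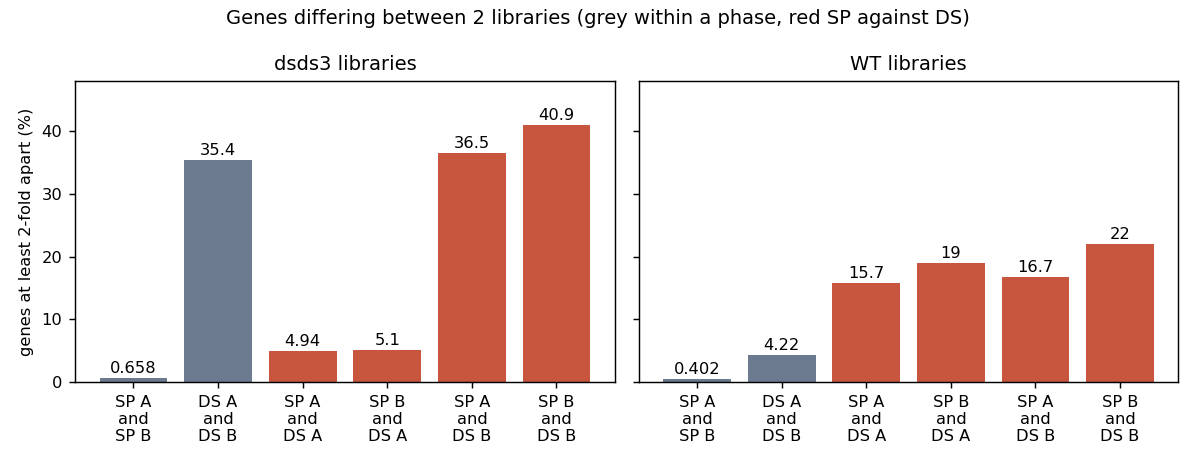
Share of genes at least 2-fold apart between pairs of libraries (percent of 5469 genes), for Δsds3 on the left and WT on the right, with pairs of the same phase in grey and SP against DS in red. In Δsds3 the DS libraries A and B differ at 35.4% of genes, while DS library A differs from the SP libraries at 4.94% and 5.10%.

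Of 6370 genes tested in Δsds3, 0 were higher and 0 were lower at SP than at DS (limma with Benjamini-Hochberg adjustment, adjusted p under 0.05 and at least 1.5-fold, percent called 0). With no adjustment, p was under 0.05 for 164 higher and 222 lower genes, and the lowest adjusted p was 0.619. The quasi-likelihood test of edgeR called 0 genes as well, with 139 higher and 255 lower at p under 0.05 before adjustment, while DESeq2 called 8 higher and 52 lower. In WT the same limma test called 790 genes higher and 832 lower of 6290, 12.6% and 13.2% (25.8% in either direction).

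The count of called genes rested on the DS library used. Set against DS library A alone, the SP libraries were higher at 409 genes and lower at 396 of 6411 (6.38% and 6.18%, 12.6% in either direction). Set against DS library B alone, they were higher at 1736 genes and lower at 1695 of 6381 (27.2% and 26.6%, 53.8% in either direction). These are comparisons with single libraries, in which the lone DS library is assumed to vary as little as the SP pair, so they describe those libraries and not the phases, and both use the same SP libraries. With SP library A left out 1 gene was called, and with SP library B left out none was. In a comparison with a single DS library, the phase change and whatever sets that library apart cannot be told apart.

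Without a called gene, genes are described below by whether both SP libraries lay above or below both DS libraries. Among the 6370 tested genes, both SP libraries lay above both DS libraries at 1514 (23.8%) and below both at 1571 (24.7%), and the phases overlapped at 3285. Scaling by total reads in place of the median of ratios raised the median change of all genes to 0.38 on the log2 scale and moved these counts to 2293 above and 862 below, so levels here are relative to the median gene. A difference of at least 2-fold in all 4 pairs of an SP and a DS library was met by 68 genes above and 80 below, 2.32% of tested genes, against 7.95% in WT. Under total read scaling those 68 and 80 became 105 and 40.

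**Figure D2:**
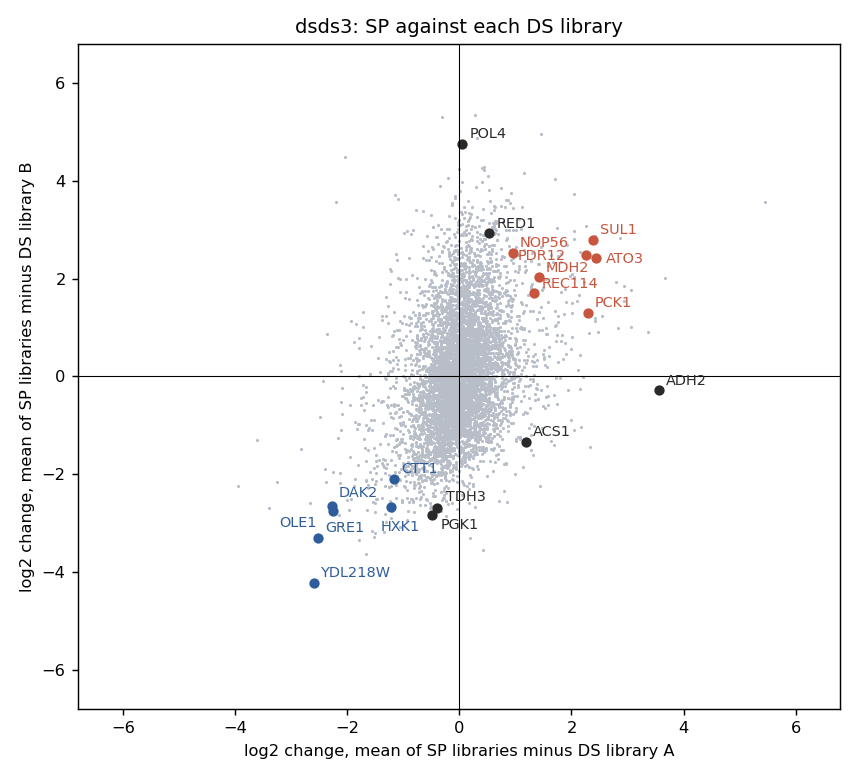
Log2 change in 6370 genes of Δsds3, as the mean of the SP libraries minus DS library A (horizontal axis) and minus DS library B (vertical axis). Positive values are higher at SP, and both axes use the same SP libraries. Genes named in red lay above and genes in blue below both DS libraries, while ADH2 and POL4, in black, were far from 1 DS library and close to the other.

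Genes were ranked by their smallest change over the 4 pairs of an SP and a DS library. Only genes with a mean rescaled count of at least 50 over the 4 libraries entered. They were chosen for this after their values were seen, so the folds are descriptive. The first of those higher at SP were BSC1, ATO3, FDH2, SUL1 and PDR12, in this order. BSC1, a relative of a cell surface flocculin, had 171 and 163 rescaled counts at SP, against 2.84 and 13.2 at DS, where it rested on 6 and 18 reads. It met the minimum of 50 only through its SP libraries, so its first place depends on that filter. FDH2, a formate dehydrogenase whose reads can be shared with the near-identical FDH1, had 685 and 613 at SP, against 121 and 87.4 at DS. PDR12, a plasma membrane pump that exports weak organic acids, had 16514 and 14836 rescaled counts at SP, against 3271 and 2785 at DS. Its log2 change was 2.37 (standard error 0.35, limma adjusted p = 0.619), and in WT it was 2.73 (adjusted p = 4.7e-05). SUL1, a sulfate permease, had 1202 and 1526 at SP, against 258 and 195 at DS. ATO3, a plasma membrane protein thought to export ammonium, had 1671 and 1835 at SP, against 321 and 326 at DS. In PDR12, SUL1 and ATO3 the SP libraries were close to each other and lay at least 4-fold above both DS libraries. Further down the ranking, SIT1, a carrier of iron bound to siderophores, had 1564 and 1852 at SP, against 619 and 273 at DS. The glycerol and proton symporter STL1 had 771 and 613 at SP, against 183 and 239 at DS. Both were at least 2-fold higher at SP in every pair of libraries. CHA1, which breaks down serine and threonine, had 2518 and 2928 at SP, against 352 and 932 at DS, a log2 change of 2.24. In WT it fell by 2.60 (limma adjusted p = 0.0001), and the difference between the strains, 4.85, did not pass its test (adjusted p = 0.0659). FDH1, the near-identical partner of FDH2, had 1056 and 934 at SP, against 129 and 276 at DS.

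The genes that stood lowest at SP relative to both DS libraries were led by YDL218W, a gene of unknown function, and GRE1, a hydrophilin of stressed cells. YDL218W had 5791 and 5856 rescaled counts at SP, against 35154 and 108694 at DS, a log2 change of -3.41 (standard error 0.70). GRE1 had 6963 and 7930 at SP, against 42790 and 73330 at DS, a log2 change of -2.91 (standard error 0.54, limma adjusted p = 0.619). Both DS libraries lay at least 5-fold above both SP libraries in each of these genes. OLE1, the fatty acid desaturase of yeast, had 5963 and 4248 at SP, against 24027 and 33857 at DS, and it was lower at SP in WT as well, with a log2 change of -1.74 (adjusted p = 0.0032). DAK2, a dihydroxyacetone kinase, had 611 and 510 at SP, against 2716 and 3523 at DS. In WT it rose by 1.28 (adjusted p = 0.013), and the difference of -3.73 did not pass its test (adjusted p = 0.0659). GND2 and TKL2, minor enzymes of the pentose phosphate pathway, showed the same order. GND2 had 3174 and 3507 at SP, against 11574 and 34063 at DS, and TKL2 had 3919 and 4021 at SP, against 11337 and 36569 at DS. SUC2, invertase, had 6164 and 5333 at SP, against 16973 and 51178 at DS. In WT neither GND2 (0.26) nor TKL2 (-0.03) nor SUC2 (-0.33) passed the test of the log2 change.

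**Figure D3:**
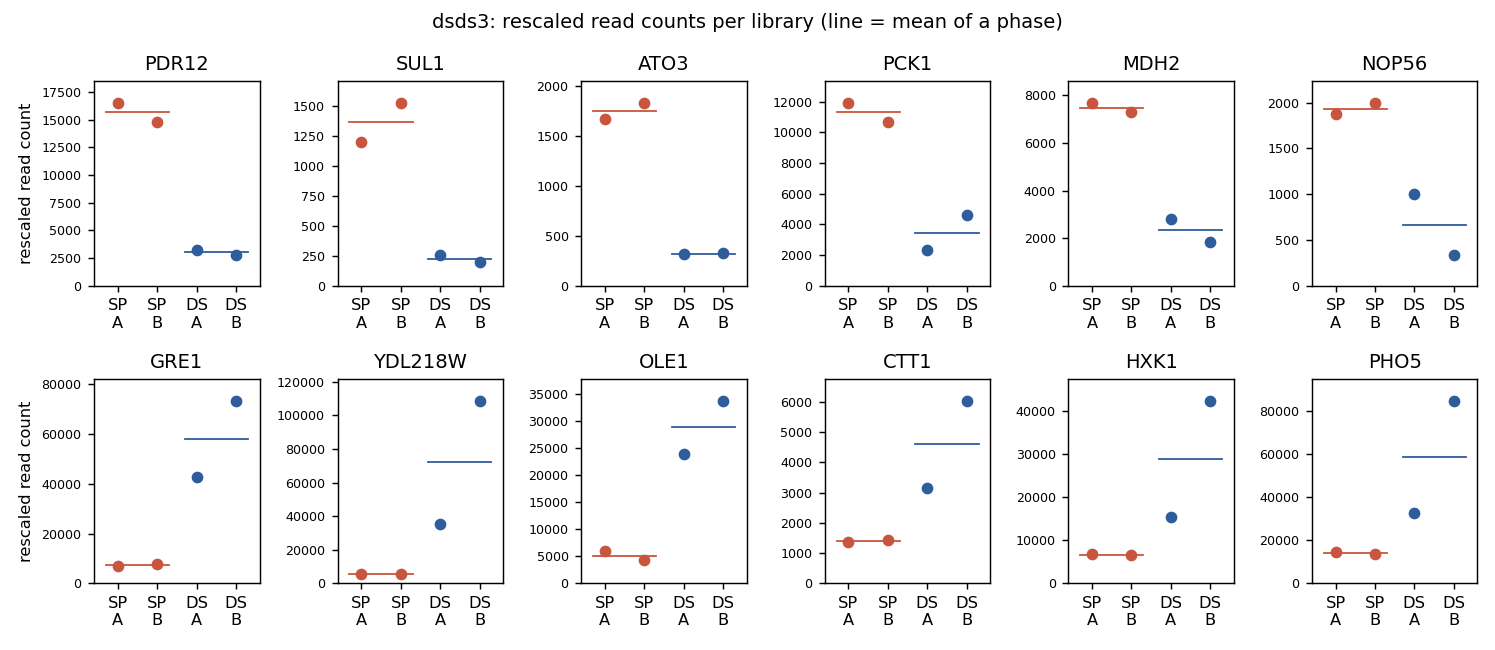
Rescaled read counts of 12 genes in each of the 4 Δsds3 libraries, SP in red and DS in blue, each point a library and each line the mean of a phase, with axes starting at 0. The SP points lie together in every panel, while the DS points are close for PDR12, SUL1 and ATO3 and far apart for YDL218W, HXK1 and PHO5.

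Genes of growth without glucose were described first among the lists. Gluconeogenesis runs glycolysis backwards from ethanol and acetate through the glyoxylate cycle. Of 15 tested genes of gluconeogenesis, the glyoxylate cycle and acetate and ethanol use, the SP libraries lay above both DS libraries at 7 and below both at 0, beside 23.8% and 24.7% of all genes. The median log2 change of the list was 1.19 against DS library A and -0.14 against DS library B, beside -0.01 and -0.01 for all genes. PCK1, the phosphoenolpyruvate carboxykinase that commits carbon to gluconeogenesis, had 11914 and 10695 at SP, against 2310 and 4584 at DS. MDH2, the cytosolic malate dehydrogenase, had 7678 and 7296 at SP, against 2804 and 1836 at DS. ICL1, isocitrate lyase of the glyoxylate cycle, had 16911 and 13430 at SP, against 3047 and 8190 at DS. SFC1, a mitochondrial carrier of succinate and fumarate, had 2076 and 1933 at SP, against 1279 and 899 at DS. The other genes above both were ADY2, an acetate transporter, and CAT8 and SIP4, activators of the pathway.

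The remaining members of that list depended on the DS library. ADH2, the alcohol dehydrogenase that consumes ethanol, had 17587 and 13722 at SP, against 1320 in DS library A and 18902 in DS library B. ACS1, an acetyl-CoA synthetase, had 26771 and 20160 at SP, against 10205 and 58670 at DS. FBP1, fructose-1,6-bisphosphatase, had 2901 and 2949 at SP, against 2044 and 7436 at DS. DS library A was the lowest and DS library B the highest of the 4 in each of these genes. In WT, 8 of the 15 genes were lower at SP and 0 higher (limma), with a median log2 change of -1.22. PCK1 fell by 1.73 in WT (adjusted p = 0.0033), and its change in Δsds3 minus that in WT was 3.54, which did not pass the test of the difference (adjusted p = 0.119). For this and the other lists, the difference between the medians of the strains was not tested.

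Genes of glycolysis, the path from glucose to pyruvate, mostly lay lower at SP. Of 24 tested genes of glycolysis and fermentation, the SP libraries lay below both DS libraries at 16 and above both at 0. Over all tested genes these shares were 24.7% and 23.8%. The list's median log2 change was -0.44 against DS library A and -1.65 against DS library B, while in WT it was 0.48 with 5 genes higher and 1 lower. HXK1, the hexokinase that is repressed by glucose, had 6729 and 6537 at SP, against 15410 and 42373 at DS, and in WT it rose by 0.76 (limma adjusted p = 0.046), while the difference of -2.70 did not pass its test (adjusted p = 0.337). PDC1, the main pyruvate decarboxylase, had 26165 and 20105 at SP, against 50053 and 106974 at DS. TDH3, the main glyceraldehyde-3-phosphate dehydrogenase, had 83994 and 66517 at SP, against 98371 and 483293 at DS, so most of its difference came from DS library B. Among 14 tested hexose transporters, 6 lay below both DS libraries and 2 above both, and their median log2 change of -0.20 turned to 0.18 under total read scaling. HXT6, a high-affinity transporter nearly identical to HXT7 so that reads can be split between them, had 7198 and 6679 at SP, against 14663 and 29612 at DS. HXT3, a low-affinity transporter, had 690.0 and 557 at SP, against 1133 and 1063 at DS. In WT it rose by 1.72 (adjusted p = 0.0013), and the difference of -2.53 did not pass its test (adjusted p = 0.146). HXT2 went the other way, with 3227 and 3069 at SP, against 851 and 1964 at DS.

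Stress and storage lists differed among themselves. Of 23 tested chaperones, 7 lay below both DS libraries and 1 above both, and their median log2 change was 0.05 against DS library A and -0.48 against DS library B. Of 12 glycogen genes, 6 lay below both and 3 above both, with medians of -0.13 and 0.01. Among all tested genes 24.7% lay below both and 23.8% above both, near the shares of chaperones below and of glycogen genes above. Against both DS libraries together, total read scaling turned the median from -0.20 to 0.18 for chaperones and from -0.10 to 0.27 for glycogen. Hydrophilins and heat shock proteins protect membranes and proteins as cells dry or starve. Of 18 tested genes of stationary phase and hydrophilins, 13 lay below both DS libraries and 1, SPG1, above both. The median log2 change was -0.60 against DS library A and -0.96 against DS library B, and in WT it was -0.00053. SPI1, a cell wall protein of starved cells, had 4500 and 4128 at SP, against 12182 and 19944 at DS. SIP18, a hydrophilin, had 2608 and 3931 at SP, against 8045 and 7419 at DS. The DS libraries agreed closely in SIP18 and both lay above SP. HSP12, a small membrane-protecting heat shock protein, had 15078 and 16804 at SP, against 34824 and 26505 at DS. SPG1 had 5900 and 8410 at SP, against 4795 and 4340 at DS.

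Antioxidant enzymes remove peroxides and repair oxidized thiols. Beside 24.7% below and 23.8% above over all tested genes, 14 of 22 antioxidant genes lay below both DS libraries and 1 above both. Their median log2 change was -0.27 against DS library A and -1.41 against DS library B. CTT1, the cytosolic catalase, had 1379 and 1445 at SP, against 3163 and 6038 at DS. In WT it rose by 1.93 (limma adjusted p = 0.0026), and the difference of -3.55 did not pass its test (adjusted p = 0.14). TRX2, a thioredoxin, had 2605 and 2713 at SP, against 4832 and 7497 at DS. Of 9 trehalose genes, 6 lay below both DS libraries and 0 above. NTH2, a trehalase, had 1829 and 1753 at SP, against 3457 and 6763 at DS. The median log2 change of the trehalose genes was -0.17 against DS library A and -1.28 against DS library B.

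The promoter of CTT1 is shown because both SP libraries lay at least 2-fold below both DS libraries in this gene and stress-response elements are known to serve it. The window is the 250 bases before its start codon, chrVII:654384-654633 of R64 on the forward strand from RefSeq. It holds 1 match to the letters of the stress-response element, in capitals (AGGGG, here as CCCCT on the other strand). Whether this match is an element that serves CTT1 was not tested.
CTT1: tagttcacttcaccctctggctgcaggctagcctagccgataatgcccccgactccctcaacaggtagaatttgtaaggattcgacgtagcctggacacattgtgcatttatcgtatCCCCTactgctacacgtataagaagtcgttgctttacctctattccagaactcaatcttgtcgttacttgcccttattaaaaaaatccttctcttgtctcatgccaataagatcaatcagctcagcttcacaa
On either strand AGGGG was present in 13 of 22 promoters of antioxidant enzymes (59.1%) and 7 of 18 of the stationary phase and hydrophilin genes (38.9%), beside 19.2% of 5790 promoters of tested genes. Among the genes at least 2-fold lower at SP in all 4 library pairs, 19 of 66 with a promoter window held it (28.8%), and among those at least 2-fold higher, 12 of 51 (23.5%).

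Zinc and ergosterol genes mostly lay below both DS libraries, while phosphate genes were divided. Among all tested genes, 24.7% lay below both DS libraries and 23.8% above both. Of 16 phosphate genes, 7 lay below both DS libraries, 1, PHO89, above both, and 8 overlapped. PHO5, the secreted acid phosphatase, had 14599.9 and 13790 at SP, against 32936 and 85007 at DS. In WT it fell by 1.02 (limma adjusted p = 0.038). PHO5 shares long stretches of sequence with other acid phosphatase genes, so its reads may be split. Of 13 zinc genes, 10 lay below both DS libraries and 0 above. ZRT3, which releases zinc from the vacuole, had 4166 and 3605 at SP, against 7466 and 14602 at DS, and IZH1, a membrane protein of zinc homeostasis, had 1145 and 1192 at SP, against 3360 and 2174 at DS. In IZH1, unlike most of these genes, DS library A was the higher of the DS pair. Of 23 ergosterol genes, 16 lay below both DS libraries and 1 above. ERG2, a sterol isomerase, had 1760 and 1200 at SP, against 2796 and 11155 at DS, and ERG5, a sterol desaturase, had 395 and 279 at SP, against 767 and 2253 at DS.

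Genes for making ribosomes lay on the other side. Over all tested genes, the SP libraries lay above both DS libraries at 23.8% and below both at 24.7%. Of 66 tested mitochondrial ribosomal protein genes, the SP libraries lay above both DS libraries at 40 and below both at 0. Their median log2 change was 0.53 against DS library A, 0.59 against DS library B and 0.59 in WT, where 20 were higher and 0 lower (limma). This list had nearly the same median against each DS library, though the phases overlapped at 26 of its genes and single members differed between the DS libraries. MRPL9 had 609 and 604 at SP, against 312 and 112 at DS, and MRPL11 had 696 and 673 at SP, against 363 and 173 at DS. Of 100 ribosome biogenesis genes, which act in the nucleolus, 54 lay above both DS libraries and 5 below both. Their median was 0.18 against DS library A, 1.06 against DS library B and -0.06 in WT. NOP56, a core protein of the particles that methylate ribosomal RNA, had 1872 and 1998 at SP, against 1001 and 334 at DS. NOP16, a nucleolar protein of the large subunit, had 5782 and 6190.0 at SP, against 2849 and 638 at DS, and in WT it rose by 2.58 (adjusted p = 5.8e-05).

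Cytosolic ribosomal proteins gave no single order. The shares over all tested genes were 23.8% above both DS libraries and 24.7% below both. Of 81 genes of the large subunit, 29 lay above both DS libraries and 2 below. Their medians were 0.36 against DS library A and -0.46 against DS library B. The small subunit gave 0.39 and -0.62 over 56 genes. The median against both DS libraries together was -0.10 for the small subunit and turned to 0.27 under total read scaling. The NOP56 promoter is shown for the PAC element GATGAG, in capitals, which was present on either strand in 93 of 100 ribosome biogenesis promoters (93.0%), beside 16.5% of all tested genes. The window is chrXII:545847-546096 of R64 from RefSeq, forward strand.
NOP56: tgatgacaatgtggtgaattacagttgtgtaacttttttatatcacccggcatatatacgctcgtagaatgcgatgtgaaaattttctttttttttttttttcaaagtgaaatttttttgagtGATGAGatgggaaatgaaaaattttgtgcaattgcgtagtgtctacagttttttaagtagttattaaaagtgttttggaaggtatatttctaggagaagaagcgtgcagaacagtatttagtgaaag

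Meiotic genes are the classic targets of Rpd3L, which Ume6 brings to the URS1 element of their promoters. Over all tested genes, 23.8% lay above both DS libraries and 24.7% below both. Of 32 tested early meiotic genes, the SP libraries lay above both DS libraries at 12 and below both at 3. Their median log2 change was 0.04 against DS library A and 0.65 against DS library B, while in WT it was 0.99, with 14 of 31 higher at SP and 0 lower (limma). REC114, needed for the DNA breaks that start recombination, had 279 and 416 at SP, against 135 and 104 at DS. RED1, of the meiotic chromosome axis, had 2617 and 2572 at SP, against 1799 and 339 at DS, and in WT it rose by 2.37 (adjusted p = 0.0001). IME2, a kinase that starts the program, had 3085 and 3931 at SP, against 2792 and 2937 at DS. HOP1, a partner of Red1, had 2824 and 2461 at SP, against 2719 and 2626 at DS, and its phases overlapped. Of 30 middle and late sporulation genes, 8 lay above both, near the share of all tested genes, and 4 below both. Their medians were -0.42 against DS library A and 1.5 against DS library B. DIT1, an enzyme of the spore wall, had 830.4 and 1080.2 at SP, against 2993 and 1889 at DS. SPS4, a marker of sporulating cells, had 224 and 206 at SP, against 267 in DS library A and 4.41 in DS library B.

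The URS1 core GGCGGC was present on either strand, each promoter counted once, in 18 of 32 early meiotic promoters (56.2%), beside 4.25% of all tested genes. Among genes at least 2-fold higher at SP in all 4 library pairs, 6 of 51 promoters held it (11.8%), and among those at least 2-fold lower, 2 of 66 (3.03%). The promoter of CHA1 is shown, as this gene carried the element and was at least 2-fold higher at SP in every pair. Capitals mark GGCGGC on the strand of the gene. The window of 250 bases is chrIII:16881-17130, reverse strand, of R64 from RefSeq.
CHA1: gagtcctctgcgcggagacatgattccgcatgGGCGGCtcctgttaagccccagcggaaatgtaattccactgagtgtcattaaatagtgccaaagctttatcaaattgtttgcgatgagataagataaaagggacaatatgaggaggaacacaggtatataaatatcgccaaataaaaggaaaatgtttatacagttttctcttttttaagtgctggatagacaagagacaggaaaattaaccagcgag
The element lies 218 bases before the start codon of CHA1. A match of letters is not a measured binding site.

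The partners of Sds3 are given for their levels. Of 11 tested Rpd3L genes, 4 lay above both DS libraries and 1, PHO23, below both, beside 23.8% and 24.7% of all tested genes. UME6 had 1765 and 1792 at SP, against 1496 and 739 at DS. SIN3, the scaffold of the complex, had 4269 and 4608 at SP, against 4321 and 4229 at DS, so its phases overlapped. RPD3, the deacetylase, had 715 and 802 at SP, against 607 and 497 at DS.

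**Figure D4:**
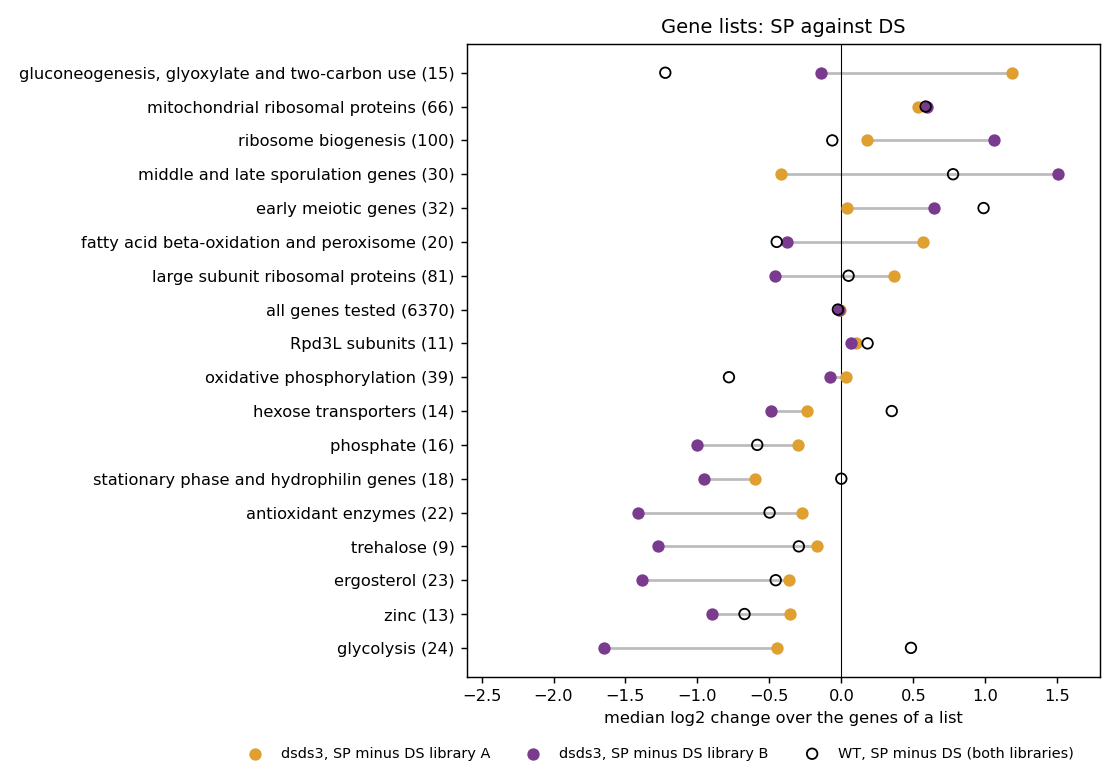
Median log2 change between SP and DS over the tested genes of each list (number in brackets), for Δsds3 against DS library A (orange) and DS library B (purple), which share the same SP libraries, and for WT (open circles). Mitochondrial ribosomal proteins sit between 0.53 and 0.59 in all 3 comparisons, while gluconeogenesis sits at 1.19 against library A, -0.14 against library B and -1.22 in WT.

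The phase change in Δsds3 was then compared with that in WT in a single fit of 8 libraries, with counts rescaled over all 8, so that the Δsds3 values differ slightly from those rescaled over the 4 Δsds3 libraries above. Of 6467 genes tested, 3 had a more positive and 2 a more negative phase change in Δsds3 (limma interaction with Benjamini-Hochberg adjustment, percent called 0.0464 and 0.0309, 0.0773 in either direction). Before adjustment, 285 and 313 had p under 0.05. The more positive genes were SUL1, the phosphate and sodium symporter PHO89 and the glutamate and aspartate permease DIP5, and the more negative ones ECM25 and YBR238C.

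SUL1 (chromosome II from 789235 to 791814) had 1206 and 1531 rescaled counts in Δsds3 at SP and 261 and 193 in Δsds3 at DS, against 666 and 1045 in WT at SP and 4532 and 3870 in WT at DS. Its level was higher at SP than at DS in every Δsds3 library, while in WT it fell by 2.31 on the log2 scale (adjusted p = 0.000153), and the difference was 4.92 (standard error 0.45, limma adjusted p = 0.0252). PHO89 (chromosome II from 796798 to 798522) had 10749 and 16041 in Δsds3 at SP and 5406 and 3906 in Δsds3 at DS, against 3659 and 3785 in WT at SP and 21006 and 28759 in WT at DS. Its difference was 4.24 (standard error 0.48, adjusted p = 0.0451). DIP5 (chromosome XVI from 41043 to 42869) had 5448 and 4228 in Δsds3 at SP and 2495 and 1576 in Δsds3 at DS, against 1101 and 1774 in WT at SP and 12480.2 and 9422 in WT at DS. Its difference was 4.23 (standard error 0.50, adjusted p = 0.0451). In all 3 transporter genes the Δsds3 DS libraries lay far below the WT DS libraries, and the Δsds3 SP libraries lay above the WT SP libraries. SUL1 and PHO89 are near neighbours, with 4983 bases between them, and PCA1, the gene between them, had a difference of 0.14 (adjusted p = 0.93).

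ECM25 (chromosome X from 54379 to 56178) had similar levels in Δsds3 at both phases and in WT at DS, and stood higher in WT at SP. It had 745 and 878 in Δsds3 at SP and 780 and 726 in Δsds3 at DS, against 5020 and 6556 in WT at SP and 684 and 715 in WT at DS. Its difference was -2.93 (standard error 0.36, limma adjusted p = 0.0451), with a log2 change of 0.10 (standard error 0.30) in Δsds3 alone. YBR238C (chromosome II from 695107 to 697302), a relative of the RNA-binding protein gene RMD9, had 573 and 576 in Δsds3 at SP and 994 and 850 in Δsds3 at DS, against 353 and 432 in WT at SP and 58.7 and 62.0 in WT at DS. Its difference was -3.35 (standard error 0.39, adjusted p = 0.0451). In these 5 genes the Δsds3 DS libraries were less than 2-fold apart. The test favours genes whose libraries agree within a group, so this closeness and the steady values that follow are favoured by the choice of genes. Without DS library A the difference was 5.11 for SUL1, 4.45 for PHO89, 4.54 for DIP5, -2.90 for ECM25 and -3.26 for YBR238C, and without DS library B it was 4.71, 4.01, 3.91, -2.97 and -3.45 for the same genes.

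The number of genes called in this comparison moved with single libraries. Without Δsds3 DS library A, 1054 of 6537 genes were above and 708 below (16.1% and 10.8%, 27% in either direction), and without Δsds3 DS library B, 167 of 6564 were above and 203 below (2.54% and 3.09%, 5.64% in either direction). Without any 1 of the other 6 libraries, 0 genes were called in either direction, with counts before adjustment (p under 0.05) from 118 to 219 above and from 134 to 270.0 below. Scaling by total reads also gave 0 and 0, with 377 above and 161 below at p under 0.05 before adjustment.

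**Figure D5:**
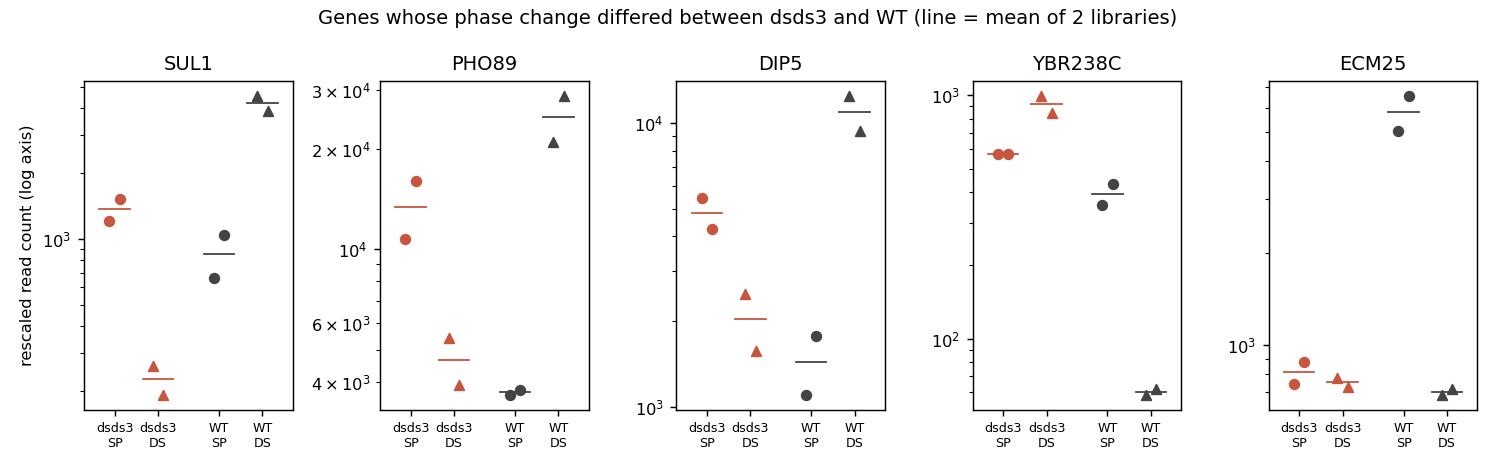
Rescaled read counts (log axis, a separate range for each gene) of SUL1, PHO89, DIP5, YBR238C and ECM25 in the 8 libraries, Δsds3 in red and WT in dark grey, circles for SP and triangles for DS, with a line at the mean of each pair. In SUL1 the Δsds3 DS libraries sit at 261 and 193 while the WT DS libraries sit at 4532 and 3870.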

How the data were processed

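RNA was sequenced from 2 biological replicates of each strain and phase as poly-A selected libraries. Per the labels and the study's methods, the authors aligned reads to sacCer3 with Bowtie2 and analysed the counts in DESeq2, and the counting program and annotation are not given in the sources used here. The deposited signal is the read count of a gene divided by the DESeq2 size factor of its library. The tables also hold the authors' mean, fold change, its error, test statistic and p-values, which were not used. Dividing each column by its step gave whole reads for 100% of values (within 0.001 reads). The SP and DS tables were joined on 6823 genes. The 79 genes in 1 table only had at most 6 reads in a Δsds3 library and were left out. Of the joined identifiers, 5904 matched RefSeq (R64), and the others keep the identifier of the file. Libraries were rescaled together by the median of ratios. Genes kept by filterByExpr of edgeR 4.0.16 were tested with limma 3.58.1 (R 4.3.3, mean-variance trend) on log2 of the rescaled count plus 1, which understates changes of low genes. Calls needed an adjusted p under 0.05 and at least 1.5-fold. With 2 libraries a group, no exact permutation test of a single gene can reach 0.05, so p-values come from the model. The step from values to calls was tested on simulated data with the same spread in every group. That simulation does not cover pairs as unequal as the SP and DS pairs of Δsds3.

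Libraries A and B are the columns ending in 1 and in another number, and a shared letter was not taken to pair them. The column names give the group but not which labelled replicate each library is. Each phase is a table of its own, so anything that differed between the making of the SP and DS libraries cannot be told apart from phase. The rule for named genes took SDS3, members of the gene lists and, among called genes whose libraries did not overlap and whose rescaled count averaged 50 or more, the 10 largest in each direction between phases and the 5 largest in each direction against WT. As no gene was called between phases, other genes were ranked by their smallest change over the 4 pairs of libraries, a choice made after the values were seen. The minimum of 50 was kept for that ranking. The 46 gene lists, the members and the tests were chosen with earlier results of these data known. Alternatives were edgeR, DESeq2 1.42.0, voom, other scalings, filters, a pseudocount of 8, thresholds, thinning, a replicate block and leaving out each library. SP library B, with 2633585 reads, sets the precision of genes with few reads.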

Additional observations from a re-analysis of the deposited data

Results flagged for a closer look

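In 5 genes the change between SP and DS differed between Δsds3 and WT by limma's interaction term, as given in the report. The difference in log2 change was 4.92 for SUL1, 4.24 for PHO89, 4.23 for DIP5, -3.35 for YBR238C and -2.93 for ECM25, with adjusted p between 0.0252 and 0.0451. The sign was the same under all 16 alternatives run for each gene, which is favoured by picking genes that had passed the main test. SUL1 passed the threshold under 8 of them, PHO89 under 7, and DIP5, ECM25 and YBR238C under 6. The adjusted p of SUL1 ranged from 8.1e-18 with DESeq2 to 0.307, and that of the other genes reached at most 0.481. Groups of 2 libraries are too small to look for a library far from the rest of its group.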

How the results depend on the processing

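Between SP and DS in Δsds3 the main test called 0 genes higher and 0 lower, and edgeR, voom, TMM and total read scaling, a pseudocount of 8, both filters, both thresholds, thinning and a fit shared with WT also called 0 and 0. DESeq2 called 8 higher and 52 lower. Leaving out 1 library gave from 0 to 1736 higher and from 0 to 1695 lower. For the difference to WT, where the main test called 3 above and 2 below, DESeq2 called 47 above and 66 below, voom 1 and 0, total read scaling 0 and 0, and the test against a 1.5-fold change 1 and 0, while thinning called 1 below. Leaving out 1 library gave from 0 to 1054 above and from 0 to 708 below. The causes were not tested.

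Libraries sharing a letter did not deviate together (correlation -0.25 between the phases of Δsds3 and -0.15 in WT over 6370 genes). Whether any cultures were paired cannot be told from this, since the letters were assigned here and the column numbers differ between phases. With the letter as a replicate block, 24 genes were higher and 3 lower between the phases, and 0 were above and 0 below in the difference to WT. With the block crossed, a choice made after seeing that correlation, 106 were higher and 34 lower, and 1 was above and 0 below.

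Of 456 values of 57 named genes under other settings, 430 moved by less than the spread between replicates and 1 changed sign. That spread pools the SP and DS pairs of each gene, so it allows large shifts where the DS libraries stood apart. Of 228 values with a library left out, 4 changed sign. Of 414 values of 46 list medians under other settings, 25 changed sign, 16 of them under total read scaling. Of 184 with a library left out, 24 changed sign, 5 without DS library A and 12 without DS library B. The 2 libraries per group and the distance between the DS libraries limit all comparisons, and SP library B limits genes with few reads.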

Other observations

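Of all tested genes, both SP libraries lay above both DS libraries at 23.8% and below both at 24.7%. Of 23 tested iron genes, 9 lay above both DS libraries and 4 below both. FIT3, a cell wall protein that holds iron-bound siderophores, was among those above, and its relative FIT2 among those below. Of 22 amino acid and peptide permeases, 4 lay above both and 7 below both. GAP1, the general amino acid permease, had 18861 and 14956 rescaled counts at SP, against 6249.6 and 8739 at DS. Of 28 cell wall genes, 1 lay above both and 11 below both, and of 20 genes of fatty acid oxidation and the peroxisome, 5 lay above both and 0 below.

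Genes that lay at least 2-fold apart in all 4 library pairs include several near chromosome ends. Within 30 kb of an end were 11 of the 51 placed protein-coding genes that stood higher at SP (21.6%) and 11 of the 66 that stood lower (16.7%), beside 5.51% of 5790 tested genes. SUL1, PHO89, FDH1, SIT1 and CHA1 are examples among the higher genes. Neighbouring genes and gene families share reads or position, so these genes are not independent, and no test was run. The distance of 30 kb was chosen after the values were seen.

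Some genes were far apart between the DS libraries and alike in the other 3 libraries. POL4, a DNA polymerase of end joining, had 1409 and 1556 rescaled counts at SP, 1434 in DS library A and 53.6 in DS library B. PGK1, phosphoglycerate kinase, had 22124 and 16311 at SP, 26684 in DS library A and 135369 in DS library B. ADH2 differed between the DS libraries of both strains, with (rescaled over all 8 libraries) 1337 and 18747 in Δsds3 and 2943 and 49475 in WT.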
